A study of Mus musculus with 12 samples.

Results

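The colonic stem cell and Wnt pathway genes described here are 34 genes chosen by name from the table of 55471 genes measured in mouse colonic crypts: 11 markers of crypt-base stem cells, 6 feedback inhibitors and direct targets of Wnt, 5 Wnt receptors and co-receptors, 2 relay proteins, 3 TCF/LEF transcription factors, 3 genes of crypt position and adhesion, and 4 genes tied to reserve or regenerative cells. Each of the 34 symbols matched a single row, and 33 of them had enough reads to be tested among 14610 genes. The exception was Lef1, with at most 2 reads in any library.

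RNA-seq was performed on crypts from 12 mice, 3 in each of 4 groups, and covered both forms of the transcriptional coactivator CBP with and without epithelial p53. CBPAA mice carry a knock-in that replaces a pair of phosphorylated serines in CBP with alanines, and CBPWT mice carry the unaltered protein. In the p53-floxed groups (CBPWT p53-floxed, labelled WT, and CBPAA p53-floxed, labelled AA) the p53 gene was floxed but intact. In the p53ΔIEC groups (CBPWT p53ΔIEC, labelled Vil_p53KO_WT, and CBPAA p53ΔIEC, labelled Vil_p53KO_AA) p53 was deleted by a Cre recombinase that the Villin promoter drives in intestinal epithelial cells only, so other cells of the crypt preparation kept p53. All mice were of the C57BL/6J strain, and crypts were released with EDTA from the colons of mice described as 8-week-old females for the crypt preparation. The CBPAA allele is present in every cell of the mouse, not only in the epithelium. Library totals ran from 11177430 to 18029125 counts, of which the 34 genes took between 31250 and 54861.

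In the colon, Wnt ligands bind Frizzled receptors together with LRP co-receptors, which stops the APC and AXIN complex from destroying β-catenin, so that β-catenin enters the nucleus and switches on genes with TCF factors. The signal is strongest at the crypt base, where Lgr5+ stem cells divide to renew the whole epithelium, and the R-spondin receptors LGR4 and LGR5 amplify it by restraining the ubiquitin ligases RNF43 and ZNRF3. Several target genes, among them Axin2, Rnf43, Znrf3, Nkd1 and Notum, encode inhibitors that close a negative feedback loop. CBP itself is a transcriptional coactivator that can bind both p53 and β-catenin.

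Levels between genes are given as TPM, in which reads are scaled by transcript length and to a sum of 1000000 per library, as the mean over the 12 libraries. Ctnnb1, which encodes β-catenin, was the most abundant member at 498.5 TPM. Among the stem cell markers, the membrane protein gene Prom1 stood at 104 TPM and the EGF receptor antagonist Lrig1 at 51.1 TPM. The transcription factor gene Sox9 stood at 43.6 TPM, Cdca7, a target of MYC, at 43.1 TPM, and the BMP co-receptor gene Rgmb at 31.7 TPM. The markers most specific to stem cells were lower: Ascl2, the transcription factor that keeps stem cell identity, stood at 13.0 TPM, the matrix protein gene Smoc2 at 11.3 TPM and Lgr5 at 5.00 TPM. The TNF receptor family member Tnfrsf19 (Troy) stood at 2.32 TPM and the RNA-binding protein gene Msi1 at 1.19 TPM. Of the inhibitors, Rnf43 (21.7 TPM) and Axin2 (19.9 TPM) were well measured, Znrf3 stood at 5.64 TPM, and Nkd1 (0.84 TPM), the transcription factor target Sp5 (0.84 TPM) and the secreted Wnt deacylase gene Notum (0.52 TPM) were all under 1 TPM. Receptor levels descended from Lgr4 (88.4 TPM) through Fzd5 (59.7 TPM), Lrp6 (26.5 TPM) and Lrp5 (14.5 TPM) to Fzd7 (10.5 TPM). Apc, whose protein holds β-catenin in check, stood at 22.2 TPM. Among the TCF factors Tcf7l2 led at 17.4 TPM over Tcf7 at 5.31 TPM, and Lef1 was at 0.01 TPM. The Eph receptors that sort cells along the crypt axis, Ephb2 and Ephb3, stood at 19.4 and 17.8 TPM, and Cd44, a hyaluronan receptor and Wnt target, at 25.6 TPM. Of the genes tied to reserve or regenerative cells, Hopx stood at 88.9 TPM and the Polycomb gene Bmi1 at 15.6 TPM, while Clu (1.35 TPM) and Tert (1.33 TPM), the gene of the telomerase catalytic subunit, were near the lower end. Exons of 8 members overlap a gene on the other strand in the GENCODE M21 annotation of GRCm38, most of all Notum (38.1% of its exon bases) and Hopx (27.2%), and the strand setting of the counting is not given in the sources used here, so their reads may include those of the partner.

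Promoter sequences are shown for 3 members that the results below turn on or that are textbook Wnt targets: Sp5, whose window holds TCF/LEF motifs, Axin2, the standard readout of Wnt signalling, and Cd44, whose level split the p53-deleted libraries. They were taken from RefSeq on GRCm38.p6, run from 250 bases before to 50 bases after the start of the gene, and are written 5′ to 3′ on the strand of the gene. The Sp5 window is chr2:70474673-70474972 (plus strand), the Axin2 window chr11:108920099-108920398 (plus strand) and the Cd44 window chr2:102901616-102901915 (minus strand). Capitals mark matches to CTTTGAT or CTTTGTT, the core letters of the TCF/LEF motif, on either strand.
Sp5: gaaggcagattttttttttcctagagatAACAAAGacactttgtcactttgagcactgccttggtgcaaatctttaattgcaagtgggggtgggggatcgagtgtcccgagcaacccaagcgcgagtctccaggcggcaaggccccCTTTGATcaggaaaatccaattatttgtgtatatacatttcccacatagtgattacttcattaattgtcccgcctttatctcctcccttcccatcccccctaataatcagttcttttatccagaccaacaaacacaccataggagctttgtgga
Axin2: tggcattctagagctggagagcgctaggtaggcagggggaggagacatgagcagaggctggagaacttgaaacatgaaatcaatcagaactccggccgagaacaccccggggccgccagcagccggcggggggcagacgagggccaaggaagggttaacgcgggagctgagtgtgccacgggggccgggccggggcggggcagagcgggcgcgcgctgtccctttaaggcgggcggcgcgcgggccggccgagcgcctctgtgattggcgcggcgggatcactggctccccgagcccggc
Cd44: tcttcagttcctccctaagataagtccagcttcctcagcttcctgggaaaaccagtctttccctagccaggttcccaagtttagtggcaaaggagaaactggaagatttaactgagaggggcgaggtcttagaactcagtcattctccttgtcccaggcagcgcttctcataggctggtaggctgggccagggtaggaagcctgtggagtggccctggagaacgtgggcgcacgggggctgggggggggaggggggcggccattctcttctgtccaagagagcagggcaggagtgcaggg
The Sp5 window held CTTTGTT on the opposite strand 222 bases before the start and CTTTGAT on the strand of the gene 104 bases before it. Of 36 windows found for 24 of the 34 members, 4 held a match (11.1%), those of Sp5, Tnfrsf19, Fzd7 and 1 of the Tcf7l2 windows, against 9.33% of 32851 promoters of the same length, so these letters were about as frequent in the members as in promoters at large. No such letters stood in the Axin2 and Cd44 windows shown, which says nothing about TCF binding outside them.

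The labels were first checked against the data. Trp53, the deleted gene, stood at 27.9 ± 2.94 TPM (SD, n = 3) in CBPWT p53-floxed and 29.2 ± 5.28 TPM in CBPAA p53-floxed crypts, and at 4.29 ± 1.10 and 5.28 ± 0.763 TPM in the CBPWT and CBPAA p53ΔIEC crypts, with no overlap between floxed and deleted libraries. Markers of the epithelium (10 of 10 genes tested, led by Krt8 and Krt19) summed to between 12196 and 17533 TPM in each library. The 15 stromal genes summed to at most 9.08 TPM and the 12 leukocyte genes to at most 10.9 TPM, and Foxl1 and S100a9 were at 0 in every library.

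Some libraries stood apart in markers of the small intestine, a tissue that colonic crypts should not contain. The 14 genes of the small-intestinal list summed to between 214 and 316 TPM in 8 libraries, but to 4054 TPM in CBPWT p53ΔIEC mouse 1, 1946 TPM in CBPAA p53ΔIEC mouse 3, 1022 TPM in CBPAA p53-floxed mouse 2 and 919 TPM in CBPAA p53ΔIEC mouse 1. Lyz1, the lysozyme gene of Paneth cells, which the healthy mouse colon lacks, read 2281, 789, 123 and 410 TPM in the same 4 libraries and between 0 and 13.7 TPM in the other 8. Fabp6, a bile acid carrier of the ileum, followed with 1629, 500, 217 and 453 TPM against 3.78 to 20.1 TPM. Calls in the comparisons that involve the p53-deleted groups are therefore given also without the libraries highest in these genes, CBPWT p53ΔIEC mouse 1 and CBPAA p53ΔIEC mouse 3, a choice made after the values were seen. Some values are given without all 4 as well. That fit leaves CBPAA p53ΔIEC with 1 mouse, mouse 2, which is assumed to vary like the other groups, and CBPAA p53-floxed and CBPWT p53ΔIEC with 2 mice each, so its calls rest on a single mouse wherever CBPAA p53ΔIEC takes part.

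Olfm4, a stem cell marker of the small intestine that the mouse colon hardly expresses, was the member that these libraries moved most. It read 0.15, 0.15 and 0.05 TPM in CBPWT p53-floxed mice and 0.20, 9.53 and 0.07 TPM in CBPAA p53-floxed mice. It read 126, 4.45 and 0.26 TPM in CBPWT p53ΔIEC mice and 48.7, 2.73 and 57.6 TPM in CBPAA p53ΔIEC mice. The 4 libraries over 9 TPM were the 4 libraries high in Lyz1 and Fabp6, while the remaining 8 held at most 79 reads of Olfm4. The fitted difference between CBPWT p53ΔIEC and CBPWT p53-floxed was 8.74 on the log2 scale with a 95% interval from 1.46 to 16.03 (edgeR adjusted p = 0.168), so its size was hardly bounded. Without the 4 libraries, with 1 CBPAA p53ΔIEC mouse left, the averaged p53 comparison gave 4.20 (adjusted p = 0.0488), on between 1 and 79 reads per library. What part small-intestinal material had in the level of Olfm4 was not tested.

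**Figure D1:**
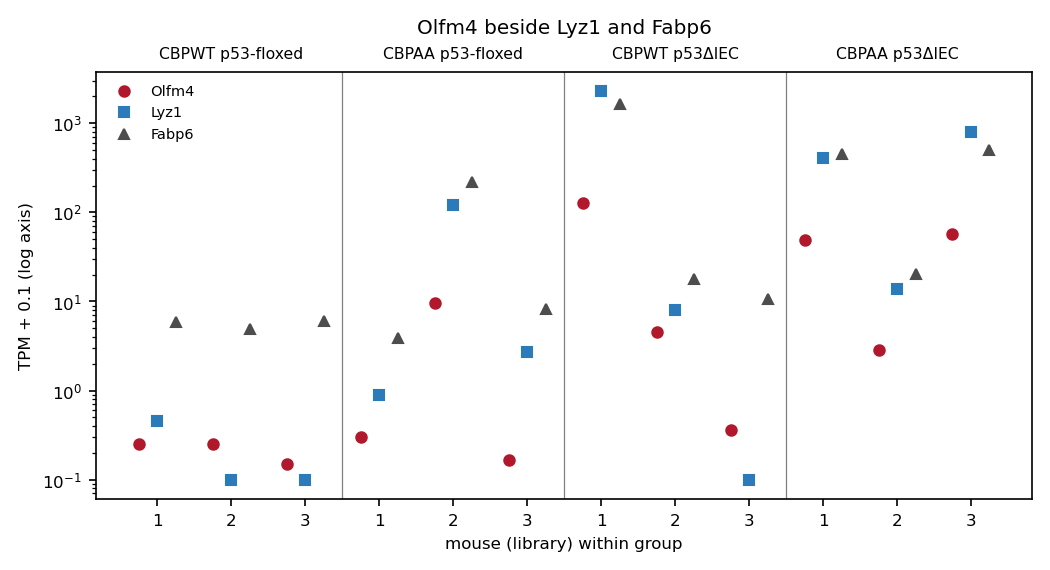
TPM + 0.1 on a log axis of Olfm4 (circles), the Paneth cell gene Lyz1 (squares) and the ileal gene Fabp6 (triangles) in each of the 12 libraries, 3 mice per group. Olfm4 exceeded 9 TPM in the 4 libraries in which Lyz1 exceeded 100 TPM.

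The other 10 stem cell markers varied far less between mice. Over the 30 members at 1 TPM or more, the median coefficient of variation among 3 mice was 7.88% in CBPWT p53-floxed, 17.0% in CBPAA p53-floxed, 26.0% in CBPWT p53ΔIEC and 15.3% in CBPAA p53ΔIEC crypts. The summed TPM of the stem cell markers other than Olfm4 ran from 291 to 316 in CBPWT p53-floxed and from 273 to 305 in CBPAA p53-floxed libraries. In the p53-deleted groups it was 239, 332 and 380 in CBPWT and 345, 336 and 284 in CBPAA mice, where the lowest library of each group was the one highest in small-intestinal genes. A smaller share of stem cells and less of each RNA per stem cell cannot be told apart in such bulk samples.

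**Figure D2:**
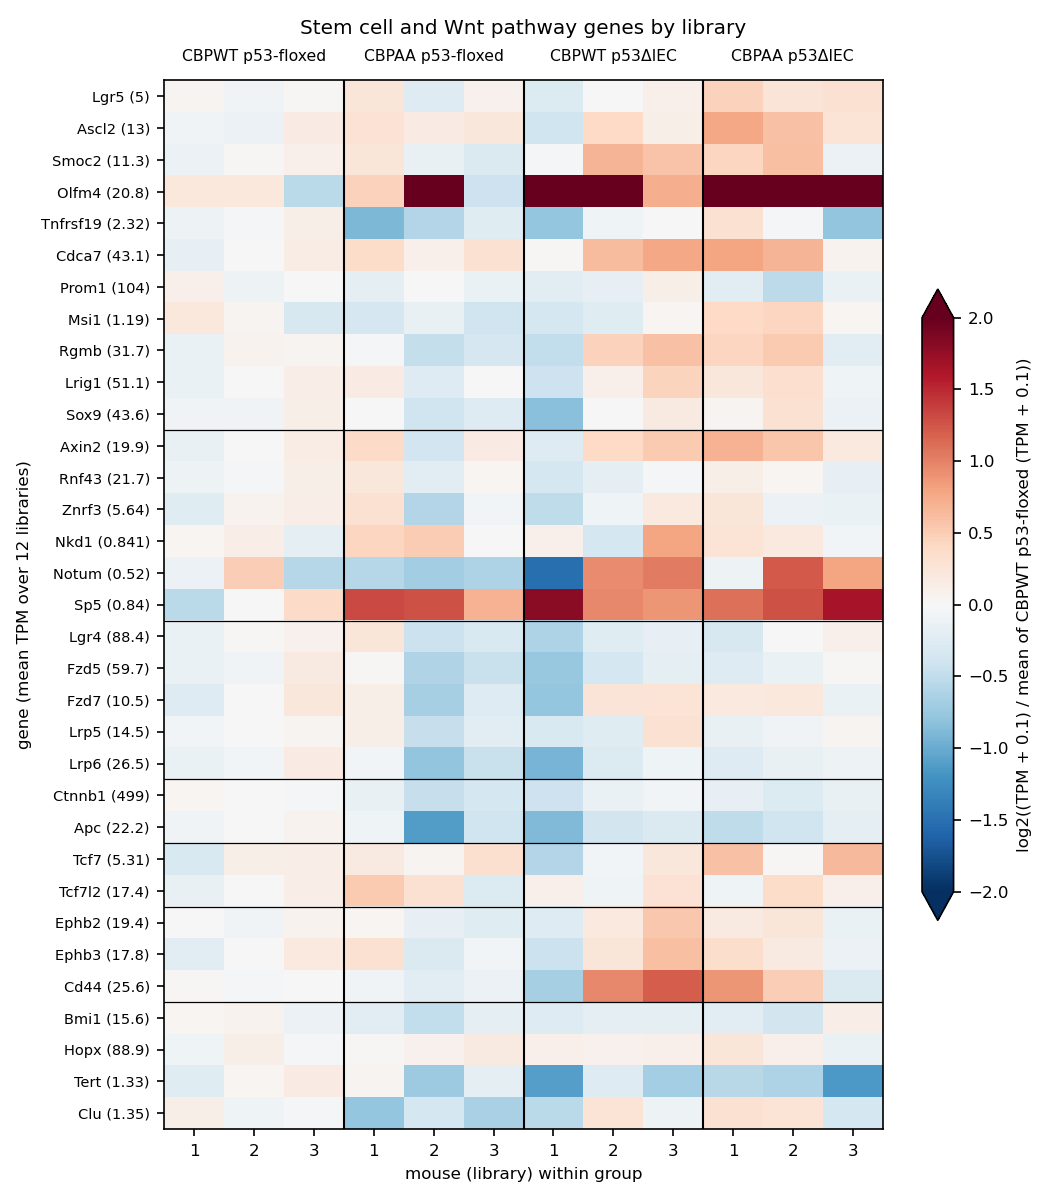
Level of 33 members in each library as log2 of TPM + 0.1 relative to the mean of the CBPWT p53-floxed libraries, with the mean TPM of each gene in parentheses and horizontal lines between the 7 roles; colours are clipped at 2 and Lef1 is left out. Olfm4 had the widest range, and Cd44 was high in 4 of the 6 p53-deleted libraries.

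Lgr5 and Ascl2, the genes that define crypt-base stem cells, did not fall in CBPAA p53-floxed crypts. Lgr5 read 4.87, 4.46 and 4.76 TPM in CBPWT p53-floxed and 5.56, 3.92 and 4.97 TPM in CBPAA p53-floxed mice, and the groups overlapped. The fitted difference was 0.16 on the log2 scale (95% interval -0.11 to 0.43, adjusted p = 0.721), so a loss of more than 0.11 on the log2 scale lay outside the interval. Ascl2 read 10.5, 10.2 and 12.4 TPM in CBPWT and 13.5, 12.3 and 12.9 TPM in CBPAA p53-floxed mice, a fitted difference of 0.35 (interval -0.03 to 0.74, adjusted p = 0.621). Without the 4 libraries high in small-intestinal genes, the difference was 0.28 for Lgr5 and 0.37 for Ascl2. None of the 33 members was called in this comparison, where a gene counted as called if edgeR gave it an adjusted p below 0.05 with an absolute log2 fold change above 0.5, and the background was 0% of 14610 genes. At an unadjusted p under 0.05 there were 2 members and 1174 genes of all (8.04%), and DESeq2 also called 0 members. The 33 log2 fold changes had a median of 0.01, as had all genes tested.

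By role, no group of members held a call in CBPAA against CBPWT p53-floxed crypts. Of the 6 feedback inhibitors and direct targets, 5 were higher and 1 lower with 12 libraries, with a median log2 fold change of 0.18. Sp5 had the lowest p of the members, with 0.22, 0.36 and 0.50 TPM in CBPWT and 1.05, 1.01 and 0.64 TPM in CBPAA p53-floxed mice, values that did not overlap but rested on 2 to 16 reads per library. Its fitted difference was 1.38 (SE 0.485, adjusted p = 0.618). Cdca7 read 30.1, 33.9 and 37.4 TPM against 43.7, 36.3 and 41.8 TPM, a difference of 0.39 (SE 0.158, adjusted p = 0.618). Axin2 read 15.3, 16.9 and 18.8 TPM against 22.2, 13.1 and 19.1 TPM. Without the 4 libraries high in small-intestinal genes, 2 CBPAA against 3 CBPWT mice, the difference was 0.45 for Cdca7 and 0.39 for Axin2. That fit gave 0.25 for Rnf43, 0.23 for Znrf3, 0.36 for Nkd1, 1.26 for Sp5 and -0.66 for Notum. With 12 libraries Tcf7 and Tcf7l2, the 2 transcription factor genes tested, had log2 fold changes between 0.32 and 0.33. Neither had an unadjusted p under 0.05. The relay genes pointed the other way: Ctnnb1 read 573, 556 and 553 TPM against 507, 409 and 441 TPM without overlap (fitted difference -0.19, interval -0.41 to 0.04, adjusted p = 0.646), and Apc 26.3, 27.7 and 29.1 TPM against 26.0, 12.7 and 20.9 TPM (-0.36, interval -0.76 to 0.04, adjusted p = 0.622). The low Apc value of 12.7 TPM was that of CBPAA p53-floxed mouse 2, high in small-intestinal genes, and without the 4 libraries the difference was -0.13 for Apc and for Ctnnb1. The 5 receptors had log2 fold changes between -0.28 and -0.02 with 12 libraries, none with an unadjusted p under 0.05, but without the 4 libraries Lgr4 (0.094), Fzd7 (0.041) and Lrp5 (0.063) were above zero, so the receptors no longer shared a direction. Clu, which marks regenerating epithelium, read 1.59, 1.38 and 1.44 TPM against 0.82, 1.12 and 0.90 TPM on 14 to 33 reads per library (-0.48, adjusted p = 0.655). The groups' CPM (counts scaled by library size with the TMM factor of the fit) did not overlap for 8 of the 33 members (Sp5, Cdca7, Ascl2, Nkd1 and Tcf7 higher, Ctnnb1, Apc and Clu lower), against 19.4% of all genes (9.75% higher and 9.62% lower). The 95% intervals of 27 of the 33 members stayed within a 2-fold change in either direction, the 6 others being Olfm4, Tnfrsf19, Nkd1, Notum, Sp5 and Clu, most of them genes with few reads.

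**Figure D3:**
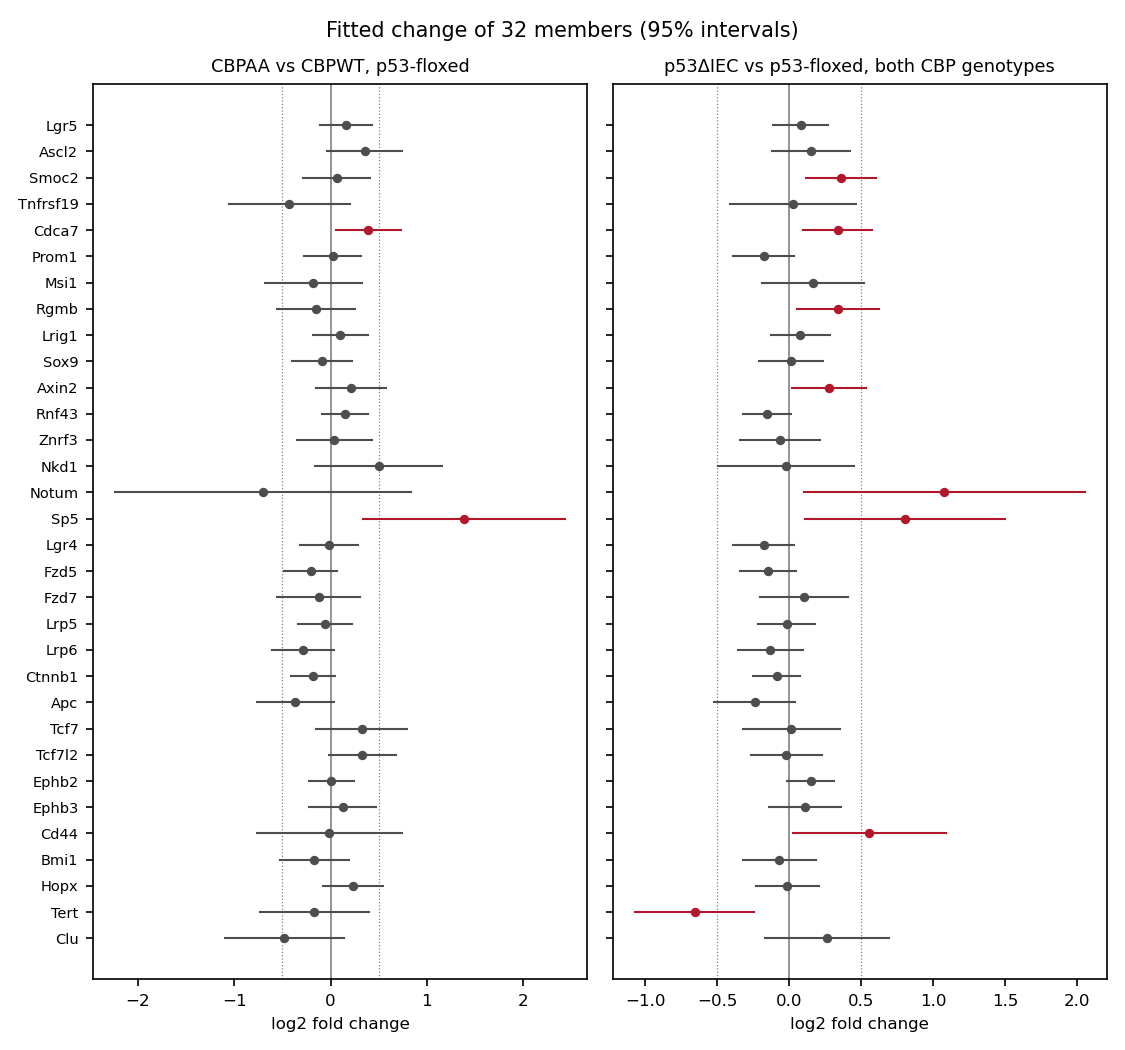
Fitted log2 fold change (points) and 95% interval (lines) of 32 members, without Olfm4 and Lef1, for CBPAA against CBPWT in p53-floxed crypts (left) and for p53ΔIEC against p53-floxed crypts averaged over both CBP genotypes (right). Red marks an unadjusted p under 0.05 and dotted lines the cutoff of 0.5; no member passed the adjusted threshold in either panel, and the x axes of the panels differ.

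Deletion of p53 in CBPWT crypts also left all 33 members uncalled in the fit of 12 libraries, with a background of 3.15% of genes called (2.29% higher and 0.856% lower). At an unadjusted p under 0.05 there were 9 members and 3053 genes of all (20.9%), and DESeq2 called 863 genes, among them 2 members, Cdca7 (0.53, adjusted p = 0.0302) and Olfm4 (8.80, adjusted p = 0.000551). Cdca7 read 34.5, 52.6 and 58.1 TPM in the CBPWT p53ΔIEC mice against 30.1 to 37.4 TPM in their controls, and its edgeR adjusted p was 0.0793 for the same 0.53. Smoc2 read 9.53, 15.8 and 14.7 TPM against 9.03, 9.93 and 10.5 TPM (0.46, SE 0.159, adjusted p = 0.124). The Wnt target Sp5 read 1.51, 0.80 and 0.74 TPM against 0.22, 0.36 and 0.50 TPM, on 2 to 16 reads per library (1.48, adjusted p = 0.105). Its difference was 0.94 without CBPWT p53ΔIEC mouse 1 and CBPAA p53ΔIEC mouse 3. Tert was lower, at -0.66 (adjusted p = 0.183). Of the receptor and relay genes, 4 had negative values at an unadjusted p under 0.05: Fzd5 at -0.39 (adjusted p = 0.106), Lrp6 at -0.38 (adjusted p = 0.170), Lgr4 at -0.30 (adjusted p = 0.235) and Apc at -0.47 (adjusted p = 0.169). In each of them CBPWT p53ΔIEC mouse 1 was the lowest of the 6 libraries, with 40.5, 16.3, 62.8 and 14.9 TPM respectively. Their differences stayed negative without CBPWT p53ΔIEC mouse 1 and CBPAA p53ΔIEC mouse 3, at -0.36 for Fzd5, -0.27 for Lrp6, -0.30 for Lgr4 and -0.42 for Apc, with adjusted p between 0.0871 and 0.256. Without the 4 libraries, 2 CBPWT p53ΔIEC mice against 3, they passed the adjusted p (0.0108, 0.0369, 0.0310 and 0.00111) but stayed under the fold cutoff. CPM did not overlap between these groups for 12 members, 5 higher and 7 lower, against 30.8% of all genes (16.1% higher and 14.7% lower). Lgr5 read 3.87, 4.72 and 5.02 TPM, overlapping its controls (-0.02, interval -0.29 to 0.25), and Axin2 14.3, 22.5 and 24.4 TPM against 15.3, 16.9 and 18.8 TPM (0.27, SE 0.170, adjusted p = 0.376).

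Cd44 split the p53-deleted libraries. It read 21.3, 20.5 and 20.8 TPM in CBPWT p53-floxed and 19.8, 17.8 and 19.1 TPM in CBPAA p53-floxed mice, a narrow range over 6 animals. In p53ΔIEC mice it read 13.2, 40.6 and 48.4 TPM in CBPWT and 38.7, 29.5 and 17.1 TPM in CBPAA mice, so 4 libraries lay above all floxed libraries and the others, those highest in small-intestinal genes, below them. With all libraries the fitted difference in CBPWT crypts was 0.67 (SE 0.340, adjusted p = 0.289). Without CBPWT p53ΔIEC mouse 1 and CBPAA p53ΔIEC mouse 3 it was 0.99 (SE 0.121, adjusted p = 0.000125), and without CBPWT p53ΔIEC mouse 1 alone it was 0.99 (adjusted p = 0.0274). The same libraries were low in proliferation genes: the 20 genes of that list summed to 426 and 307 TPM in CBPWT p53ΔIEC mouse 1 and CBPAA p53ΔIEC mouse 3, to between 721 and 947 TPM in the other 4 p53-deleted libraries, and to between 263 and 379 TPM in the 6 floxed ones. Whether the tissue make-up of these libraries set their Cd44 was not tested.

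**Figure D4:**
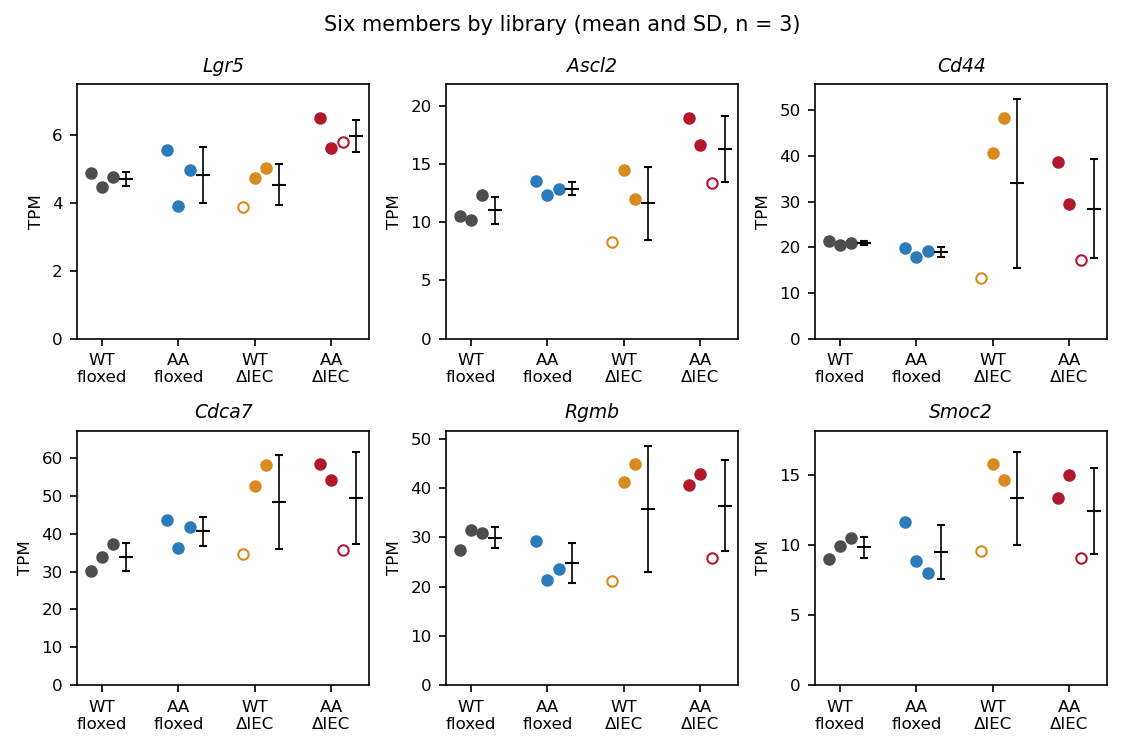
TPM of Lgr5, Ascl2, Cd44, Cdca7, Rgmb and Smoc2 in each library (points) with the mean and SD of each group of 3 mice; open points are CBPWT p53ΔIEC mouse 1 and CBPAA p53ΔIEC mouse 3. For Cd44, Cdca7 and Rgmb the filled p53-deleted points lay above the open points and above the mean of the floxed groups, and for Lgr5 the CBPAA p53ΔIEC points were the highest of the 12.

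Without those libraries 3 members were called in the CBPWT comparison, all higher after p53 deletion: Cd44, Cdca7 (0.62, SE 0.111, adjusted p = 0.00275) and Smoc2 (0.54, SE 0.120, adjusted p = 0.0100). That is 9.09% of the 33 members, beside 9.23% of all genes called in the same fit, so the share among the members was that of the transcriptome at large. Cdca7 was also called without CBPWT p53ΔIEC mouse 1 alone and without CBPAA p53ΔIEC mouse 3 alone. Lgr5 stayed at -0.04 (adjusted p = 0.891) and Ascl2 at 0.19 (adjusted p = 0.540) in that fit.

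In CBPAA crypts p53 deletion gave 0 called members in the fit of 12 libraries, where 0.0274% of all genes were called. An unadjusted p under 0.05 was reached by 4 members and by 1841 genes of all (12.6%), and DESeq2 called 0 members. Notum read 0.25, 0.22 and 0.24 TPM in CBPAA p53-floxed and 0.39, 1.12 and 0.80 TPM in CBPAA p53ΔIEC mice, without overlap but on 3 to 14 reads per library (1.54, SE 0.661, adjusted p = 0.382). Rgmb read 29.3, 21.4 and 23.6 TPM against 40.5, 42.8 and 25.8 TPM (0.42, SE 0.187, adjusted p = 0.388). Prom1 had -0.31 (adjusted p = 0.390) and Tert -0.66 (adjusted p = 0.371). Lgr5 read 6.51, 5.61 and 5.79 TPM against 5.56, 3.92 and 4.97 TPM, a TPM range just above that of the floxed mice, with a fitted difference of 0.18 (interval -0.09 to 0.45, adjusted p = 0.541), which turned to -0.052 without the 4 libraries, when 1 CBPAA p53ΔIEC mouse was left. Without the pair of libraries highest in small-intestinal genes, Cd44 (0.69, SE 0.122, adjusted p = 0.00347) and Rgmb (0.60, SE 0.106, adjusted p = 0.00343) were called, 6.06% of the members beside 8.12% of all genes. Without all 4 libraries, when CBPAA p53ΔIEC mouse 2 alone stood against 2 floxed mice, Rgmb (0.56, adjusted p = 0.00423) and Prom1 (-0.52, adjusted p = 0.0468) were called, beside 6.92% of all genes, while Cd44 at 0.45 (adjusted p = 0.0321) passed the adjusted p but fell under the fold cutoff.

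Averaged over both CBP genotypes, p53 deletion had its lowest adjusted p among the members for Tert, at -0.66 (SE 0.192, adjusted p = 0.0668). Tert read 1.47, 1.81 and 1.99 TPM in CBPWT p53-floxed and 1.82, 1.02 and 1.52 TPM in CBPAA p53-floxed mice. In p53ΔIEC mice it read 0.76, 1.46 and 1.06 TPM in CBPWT and 1.17, 1.11 and 0.74 TPM in CBPAA mice, with 22 to 76 reads per library, and the p53 states overlapped. It was called by DESeq2 (adjusted p = 0.0380) and by edgeR without CBPAA p53-floxed mouse 2 (-0.77, adjusted p = 0.0320). No member was called with all 12 libraries by edgeR, beside 3.5% of all genes (2.77% higher and 0.732% lower), while 9 members and 3201 genes (21.9%) had an unadjusted p under 0.05. DESeq2 called 761 genes, among the members Tert and Olfm4. The members above zero at an unadjusted p under 0.05 were Smoc2 (0.36, adjusted p = 0.0832), Cdca7 (0.34, adjusted p = 0.0993), Olfm4, Rgmb (0.34, adjusted p = 0.161), Sp5 (0.80, adjusted p = 0.168), Notum (1.08, adjusted p = 0.184), Axin2 (0.28, adjusted p = 0.199) and Cd44 (0.56, adjusted p = 0.209). The median over 33 members was 0.03, beside 0.01 over all genes, and the intervals of 28 members stayed within a 2-fold change in either direction.

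Without CBPWT p53ΔIEC mouse 1 and CBPAA p53ΔIEC mouse 3, the averaged comparison called Cd44 (0.84, SE 0.0859, adjusted p = 1.61e-05), Notum (1.26, SE 0.407, adjusted p = 0.0398) and Rgmb (0.52, adjusted p = 0.000306), 9.09% of the members beside 11.4% of all genes. Smoc2 (0.49, adjusted p = 0.00125), Cdca7 (0.47, adjusted p = 0.000985), Axin2 (0.38, adjusted p = 0.0276) and Ephb2 (0.23, adjusted p = 0.0244) passed the adjusted p but were under the fold cutoff. Lgr5 had 0.07 (adjusted p = 0.652) and Sox9 0.13 (adjusted p = 0.277) in that fit. Leaving out CBPWT p53ΔIEC mouse 1 alone called Cd44 (0.72, adjusted p = 0.0126) and Notum (1.29, adjusted p = 0.0387). Without all 4 libraries, with CBPAA p53ΔIEC mouse 2 alone for its group, 5 members were called, Cd44, Smoc2, Notum and Olfm4 higher and Tert lower, 15.2% beside 11.1% of all genes.

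The comparison of CBPAA p53ΔIEC with CBPWT p53ΔIEC crypts asked whether CBP genotype mattered once p53 was gone. Lgr5 was higher in all 3 CBPAA mice, at 6.51, 5.61 and 5.79 TPM, than in the CBPWT mice at 3.87, 4.72 and 5.02 TPM, by 0.36 on the log2 scale (SE 0.126, interval 0.09 to 0.63). Ascl2 read 19.0, 16.6 and 13.3 TPM against 8.31, 14.5 and 12.0 TPM (0.45, SE 0.178), and Tcf7 7.19, 4.84 and 7.58 TPM against 3.15, 4.59 and 5.63 TPM (0.54, SE 0.221). In the fit of 12 libraries all had an adjusted p of 0.985, and 0.00684% of all genes and 0 members were called. At an unadjusted p under 0.05 there were these 3 members and 521 genes of all (3.57%). DESeq2 called 0 members too. Without CBPWT p53ΔIEC mouse 1 and CBPAA p53ΔIEC mouse 3 the difference was 0.37 for Lgr5 (SE 0.156), 0.47 for Ascl2 (SE 0.187) and 0.30 for Tcf7 (SE 0.242), and 0 members and 0% of all genes were called. Without the 4 libraries high in small-intestinal genes, which leaves 1 CBPAA mouse against 2 CBPWT mice, it was 0.27 for Lgr5, 0.37 for Ascl2 and -0.0078 for Tcf7. Across both p53 states Ascl2 had 0.40 (SE 0.126), Lgr5 0.26 (SE 0.0890), Tcf7 0.43 (SE 0.156) and Sp5 0.70 (SE 0.323) in CBPAA over CBPWT crypts, and none was called at an adjusted p of 1.00, beside 0.00684% of all genes, with 4 members and 375 genes (2.57%) at an unadjusted p under 0.05. The study's methods describe the Villin-Cre mice together with an Lgr5-eGFP-creERT2 allele, and whether the sequenced animals carried it is not given in the sources used here.

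No member passed the threshold for a difference between the CBP genotypes in the response to p53 deletion. The interaction called 0 members by edgeR and 0 by DESeq2, beside 0.00684% of all genes by edgeR, and 2 members and 1502 genes (10.3%) had an unadjusted p under 0.05. These 2 were the receptor genes Fzd5 (0.48, SE 0.180) and Lrp6 (0.49, SE 0.210), each with an adjusted p of 0.482. Fzd5 read 62.9, 65.6 and 77.8 TPM in CBPWT p53-floxed and 40.5, 53.7 and 60.8 TPM in CBPWT p53ΔIEC mice, but 69.6, 45.3 and 50.2 TPM in CBPAA p53-floxed and 57.7, 62.6 and 70.2 TPM in CBPAA p53ΔIEC mice. With CBPWT p53ΔIEC mouse 1 and CBPAA p53ΔIEC mouse 3 left out, the interaction called 0 members and 0% of all genes, with 0.34 for Fzd5 (SE 0.178) and 0.32 for Lrp6 (SE 0.202). The interaction is the least precise contrast, and the intervals of 24 of 33 members stayed within a 2-fold difference in either direction.

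Other genes of the pathway were little expressed as ligands and well expressed as receptors. Of 23 Wnt and R-spondin genes 4 were tested, led by Wnt5a at 1.27 TPM, followed by Wnt6 at 0.63 TPM, and 9 of the 23 had no read in any library, among them Wnt2, Rspo2 and Rspo3, which stromal cells are known to supply. Wls, the carrier that Wnt-secreting cells need, stood at 33.9 TPM, and Porcn, which lipidates Wnt proteins, at 3.12 TPM. Of the Wnt antagonists 4 of 16 were tested, led by Kremen2 (12.3 TPM) and Kremen1 (11.2 TPM), and Dkk1, Dkk2, Sfrp4, Sost and Sostdc1 had no read. Tested among further receptors were 12 of 13 (led by Ryk, 21.5 TPM, and Fzd1, 13.0 TPM), of the cytoplasmic relay 18 of 20 (led by Ppp2ca, 98.9 TPM, and Csnk1a1, 84.8 TPM) and of the nuclear factors 14 of 15 (led by Tle5, 377.6 TPM, and Tbl1x, 40.1 TPM). None of these genes was called in any comparison of the 12 libraries. In the fit without the pair of libraries highest in small-intestinal genes, Fzd9 (1 of 12 receptors) and Tcf7l1 (1 of 14 nuclear factors) were called higher in the averaged p53 comparison, beside 11.4% of all genes. After p53 deletion in CBPAA crypts the same fit called Tpbg higher (1 of 4 antagonists) and Frat1 lower (1 of 18 relay genes), beside 8.12% of all genes. The median log2 fold change after p53 deletion, averaged over CBP genotypes, was -0.03 for the receptors, -0.05 for the relay and 0.07 for the nuclear factors, beside 0.01 for all genes.

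Further Wnt targets had a few calls, with 2 of 13 tested genes called higher after p53 deletion in CBPWT crypts and 3 of 13 in the averaged comparison, beside 3.15% and 3.5% of all genes. The calls in CBPWT crypts hang on single mice. Without any 1 of the 3 CBPWT p53-floxed mice, or without CBPWT p53ΔIEC mouse 2 or 3, few of all genes were called there. With CBPWT p53ΔIEC mouse 1 and CBPAA p53ΔIEC mouse 3 left out, 4 of 13 were called higher in CBPWT crypts (Birc5, Etv4, Gpx2 and Ccnd1), 2 in CBPAA crypts (Birc5 and Etv4) and 3 in the averaged comparison, beside 9.23%, 8.12% and 11.4% of all genes. Gpx2, a glutathione peroxidase of proliferating crypt cells, read 199, 206 and 168 TPM in CBPWT p53-floxed and 313, 369 and 394 TPM in CBPWT p53ΔIEC mice (0.94, adjusted p = 0.0265). Birc5, which encodes the mitotic protein survivin, rose by 2.19 on the log2 scale (adjusted p = 0.0329), and Etv4, an ETS factor, by 1.05 in the averaged comparison (adjusted p = 0.0465). Cd24a, the most abundant of these targets at 624 TPM, was not called. Myc read 30.6, 33.1 and 40.5 TPM in CBPWT p53-floxed and 28.3, 33.6 and 37.1 TPM in CBPWT p53ΔIEC mice and was not called in any comparison. Of 20 further stem cell signature genes tested, Clca3b was the only call of the 12 libraries, 0.67 higher in the averaged comparison (adjusted p = 0.0452), and the median over the list was 0.00. The most abundant genes of that list, Vdr (266 TPM) and Sdc4 (256 TPM), were not called, nor were any of the 8 tested genes of the regenerative list, whose most abundant members were S100a6 (1287 TPM) and Ly6a (134 TPM). When the same pair was left out, S100a6 and Cd55 were called lower after p53 deletion in CBPAA crypts and S100a6 in the averaged comparison, and Phlda1 and Clca3b of the signature list were called higher in CBPWT crypts and in the averaged comparison.

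The proliferation list set a different scale beside these. In CBPWT crypts 19 of its 20 genes were called higher after p53 deletion with a median of 1.72 (without any 1 of the 3 CBPWT p53-floxed mice, or without CBPWT p53ΔIEC mouse 2 or 3, at most 7 of all genes were called, so most of these calls were lost), in the averaged comparison all 20 with a median of 1.42, and in CBPAA crypts 0 were called while 15 had an unadjusted p under 0.05 with a median of 1.10. Leaving out CBPWT p53ΔIEC mouse 1 and CBPAA p53ΔIEC mouse 3, however, gave 19 of 20 called higher in CBPAA crypts with a median of 1.44, beside 8.12% of all genes. The most abundant of them was Pcna at 95.3 TPM, 0.55 higher in the averaged comparison (adjusted p = 0.0175), and Mki67 was 1.51 higher (adjusted p = 0.0379). The members' medians in the same 3 comparisons were -0.02, 0.03 and 0.11. In the CBPAA against CBPWT p53-floxed comparison neither list had a call, and the medians were 0.24 for proliferation and 0.01 for the members. Without the 4 libraries high in small-intestinal genes, which leaves 2 CBPAA against 3 CBPWT p53-floxed mice, Mcm6 and Rrm1 were called higher there (2 of 20, median 0.31) and 0 members, beside 0.276% of all genes.

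**Figure D5:**
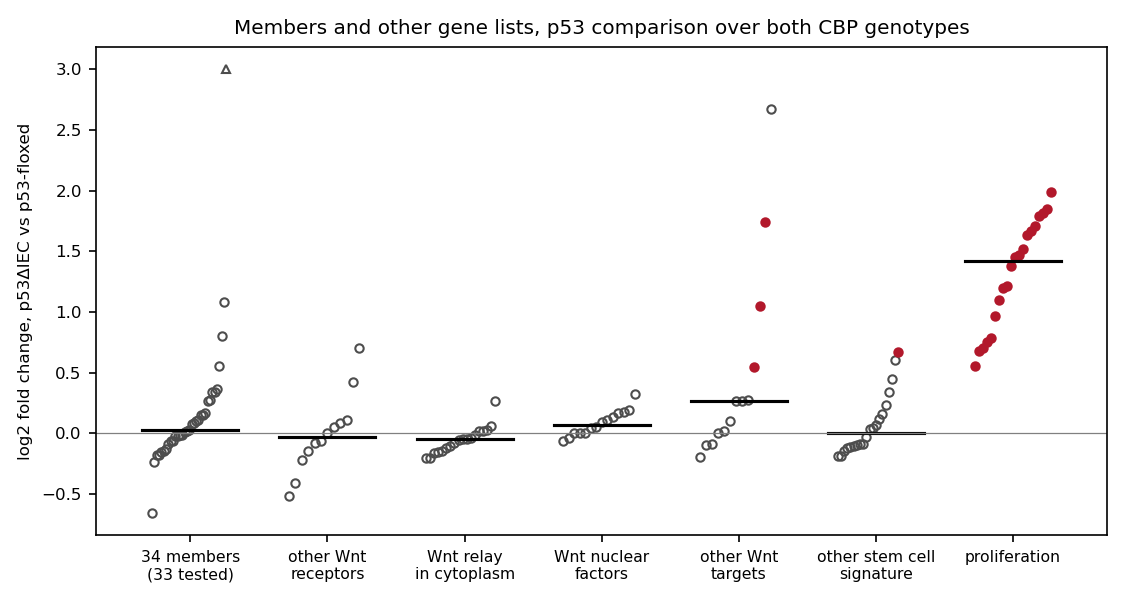
Log2 fold change of each tested gene for p53ΔIEC against p53-floxed crypts, averaged over both CBP genotypes, in the members, 5 further Wnt and stem cell lists and the proliferation list; filled red points were called, black bars are medians, and the triangle is Olfm4 at 5.98, drawn at 3. The median was 0.03 for the members and 0.26 for the other Wnt targets, whereas all 20 proliferation genes lay above 0.5.

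The number of calls in the CBPWT comparison moved widely with single libraries. The number of all genes called, 460 with 12 libraries, was 7, 2 and 1 without CBPWT p53-floxed mouse 1, 2 and 3, and 7 and 4 without CBPWT p53ΔIEC mouse 2 and 3, but 906 without CBPWT p53ΔIEC mouse 1. With 3 mice a group the fit had a median standard error of 0.166 for a member in the CBPWT comparison and 0.117 in the averaged one, so differences of the order of these errors were not detectable with 3 mice a group.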

How the data were processed

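Colonic crypt RNA was measured in 12 mice, 3 in each of 4 groups taken from the labels, which name the samples of a group as biological replicates. The authors deposited raw counts and TPM per gene and library in 1 table. Per the labels, the processing notes name fastp 0.20.0, FastQC 0.11.9, HISAT2 2.1.0, SAMtools 1.9, featureCounts of Subread 2.0.1 and the build GRCm38. The way TPM was computed is not given in the sources used here. Log2 fold changes and p-values of 5 comparisons by the authors in the same table were not used.

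Counts were fitted with edgeR 4.0.16 in R 4.3.3 (filterByExpr with a minimum count of 10, TMM, robust quasi-likelihood, 1 factor of 4 groups, all 12 libraries), with Benjamini-Hochberg adjustment over the 14610 genes tested. Alternatives were DESeq2 1.42.0, other size factors and filters, a replicate block, the compared groups alone, and libraries left out. The script was tested on simulated data. Members, lists and tests were chosen with earlier results of these data known. All members are named, and from each other list the called genes (for proliferation, by count) and the 2 most abundant, except 1 gene that is not reported here; Myc, Lyz1 and the unread ligands were chosen after their values were seen. Intervals cover the spread between mice.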

Additional observations from a re-analysis of the deposited data

How the results depend on the processing

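The count of called members stayed at 0 under all alternatives run for CBPAA against CBPWT in p53-floxed crypts, in p53ΔIEC crypts and over both p53 states, and for the interaction. DESeq2 called 2 members after p53 deletion in CBPWT crypts and 2 in the averaged comparison, and edgeR on the compared groups alone called 1, Cdca7, in the former. Without the 2 libraries highest in small-intestinal genes 3 members were called in CBPWT crypts, 2 in CBPAA crypts and 3 in the averaged comparison, and without the 4 libraries 3, 2 and 5. The last fit has CBPAA p53ΔIEC mouse 2 alone for its group, assumed to vary like the other groups, so its counts rest on 1 mouse there. Leaving out 1 mouse at a time gave 0 to 2 called members in CBPWT crypts and 0 to 2 in the averaged comparison.

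Counts of all called genes moved more. DESeq2 called 33 genes for CBPAA against CBPWT in p53-floxed crypts, 863 and 73 after p53 deletion in CBPWT and CBPAA crypts, 761 in the averaged comparison, 5 for CBP genotype over both p53 states and 30 for the interaction. Without a filter on low counts edgeR called 3, 11 and 2 for the CBP comparison in p53-floxed crypts, p53 deletion in CBPAA crypts and the interaction. On the compared groups alone it called 723 and 1 after p53 deletion in CBPWT and CBPAA crypts and 0 between the p53-deleted groups. Without the 2 libraries, the counts in the order of the report's comparisons were 12 (CBPAA p53-floxed), 1370 (p53 in CBPWT), 1205 (p53 in CBPAA), 1697 (averaged), 0 (p53-deleted groups) and 0 (interaction), and without the 4 they were 42, 1729, 1053, 1692, 8 and 35. Leaving out 1 mouse at a time gave 0 to 2, 1 to 906, 1 to 326, 105 to 1073, 0 to 1 and 0 to 1 in the same order, and 1 throughout for CBP genotype over both p53 states. The highest of these came without CBPWT p53ΔIEC mouse 1 or CBPAA p53ΔIEC mouse 3. The cause was not tested.

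With the replicate number as a block, 32 genes were called after p53 deletion in CBPWT crypts, 2 in CBPAA crypts and 304 in the averaged comparison, 0 between the p53-deleted groups and 0 for the interaction, with 0 members in each. The samples share only a number: 3 of 18 pairs of libraries with the same number had deviations correlated over 0.1 (range -0.53 to 0.55), and 2 of 12 libraries correlated best with their own number.

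Of 55 log2 fold changes of single members under 1035 alternatives, 995 kept their direction and side of the threshold, 28 gained a call and 12 changed sign. Among these values, the sign changed without the 4 libraries for Cd44 (0.020) and Tert (0.027) in the CBP comparison of p53-floxed crypts, for Lgr5 after p53 deletion in CBPAA crypts (-0.052) and averaged (-0.045), and for Tcf7 between p53-deleted groups (from 0.54 to -0.0078). It also changed for 3 receptors that are not among the 55, Lgr4 (0.094), Fzd7 (0.041) and Lrp5 (0.063), in the CBP comparison of p53-floxed crypts. Leaving out 1 mouse at a time gave -0.069 to 0.18 for Ascl2 and -0.049 to 0.017 for Lgr5 after p53 deletion in CBPWT crypts, and -0.097 to 0.031 for Cd44 and -0.28 to 0.030 for Tert in the CBP comparison of p53-floxed crypts. With 3 mice a group, and few reads for Sp5, Notum, Tert and Clu, small differences could not be detected.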

Other observations

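Genes of the other cell types of the crypt were called in some comparisons of p53 deletion, of which those below are described, beside 3.5% of all genes called in the averaged comparison and 3.15% in CBPWT crypts. Of 8 colonocyte genes tested, 2 were called in the averaged comparison and 1 in CBPWT crypts. In colonocytes, the carbonic anhydrase gene Car1 (12541 TPM on average) was 0.62 higher on the log2 scale after p53 deletion averaged over CBP genotypes (edgeR adjusted p = 0.0347), and the acute phase gene Saa1 (499.6 TPM) was lower by -1.14 (adjusted p = 0.0132) and, in CBPWT crypts alone, by -1.22 (adjusted p = 0.0405). The bile acid transporter gene Slc10a2 (85.0 TPM) was 0.56 higher in the averaged comparison (adjusted p = 0.0475), the only call among 12 small-intestinal genes tested, and was not among the calls once CBPWT p53ΔIEC mouse 1 and CBPAA p53ΔIEC mouse 3, or all 4 libraries high in small-intestinal genes, were left out. The stromal gene Pdgfrb (4.04 TPM), 1 of 3 tested, was lower by -0.86 in the same comparison (adjusted p = 0.0117). No gene of the goblet, deep crypt secretory, enteroendocrine, tuft, Paneth, endothelial or leukocyte lists was called in the 12 libraries.

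More of these genes were called without CBPWT p53ΔIEC mouse 1 and CBPAA p53ΔIEC mouse 3, in fits that called 11.4% of all genes in the averaged comparison, 9.23% in CBPWT crypts and 8.12% in CBPAA crypts. In the averaged comparison 4 of 8 colonocyte genes were called (1 higher and 3 lower, namely Car4, Car1, Aqp8 and Saa1). Agr2, a gene of the goblet and deep crypt secretory lists, was called higher in CBPWT crypts, CBPAA crypts and the averaged comparison (1 of 10 goblet and 1 of 5 deep crypt secretory genes). Of 10 enteroendocrine genes Gcg and Neurod1 were called higher in CBPAA crypts and Cck in the averaged comparison. Lyve1 (1 of 4 endothelial genes), Ptprc (1 of 6 leukocyte genes) and Apob (1 of 11 small-intestinal genes) were called lower in the averaged comparison. Without the 4 libraries, the enteroendocrine genes Chga, Neurod1 and Tph1 (3 of 10) and the goblet gene Spdef (1 of 10) were called lower in CBPAA than in CBPWT p53-floxed crypts, 2 mice against 3, beside 0.276% of all genes.

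The most abundant genes of these lists were Car1 and Guca2a (7784 TPM) in colonocytes, Zg16 (5964 TPM) and Clca1 (5954 TPM) in goblet cells, Agr2 (2104 TPM) and Reg4 (1625 TPM) in deep crypt secretory cells, Chgb (231.6 TPM) and Pyy (127.3 TPM) in enteroendocrine cells, Sh2d6 (20.7 TPM) and Trpm5 (8.62 TPM) in tuft cells, Ang4 (3578 TPM) and Defa24 (985 TPM) on the Paneth list, and Apoa1 (266 TPM) and Fabp6 (239.7 TPM) on the small-intestinal list. Stroma was led by Pdgfrb and Vim (2.15 TPM), endothelium by Lyve1 (2.88 TPM) and Pecam1 (0.81 TPM), leukocytes by Cd68 (3.24 TPM) and Lyz2 (1.04 TPM), and enteric nerve by Ret (0.80 TPM), while the endothelial gene Cdh5 had no read. The summed Paneth list was highest in CBPWT p53ΔIEC mouse 1 (24248 TPM), followed by CBPAA p53-floxed mouse 3 (11813 TPM), which was not high in small-intestinal genes (214 TPM), and CBPAA p53ΔIEC mouse 3 (10173 TPM), and lowest in CBPAA p53ΔIEC mouse 2 (342 TPM). It read 1875, 3160 and 3726 TPM in the CBPWT p53-floxed mice. Ang4 led the list, and CBPAA p53-floxed mouse 3 was among the libraries low in Lyz1. The sum is therefore not a measure of Paneth cells.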
